A study of Apis mellifera with 8 samples.

Results

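Antimicrobial peptides and genes of the Toll pathway were followed in the heads of honey bee (Apis mellifera) larvae of both female castes. The group held 7 genes of the 9161 that could be named in the files. It was set by gene name from the immune function of its members: the peptide genes Apid1 (apidaecin), LOC406142 (hymenoptaecin) and LOC406144 (abaecin), the recognition protein genes Pgrp-s2 and PGRP-S3, and the Toll-pathway genes cact1 and 18-w. RNA was measured at 96 h in heads of queen larvae (96hQ, n = 4) and of worker larvae (96hW, n = 4), and each library holds 1 head. Worker larvae had grown in the comb of their own hives and were timed from hatching. Queen larvae were raised by grafting into queen cups primed with royal jelly. The rearing and the caste therefore cannot be told apart, and whether heads of 1 caste came from separate hives is not given in the sources used here. Strand-specific libraries of polyadenylated RNA gave between 22057972 and 23344818 estimated counts per library in 96hQ and between 19139730 and 21848474 in 96hW. Replicates are individual animals. Every p-value weighs a difference between castes against the spread among heads of 1 caste, estimated with help from all genes tested.

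Insects answer bacteria and fungi with secreted peptides that kill microbes. The peptides are made mainly by the fat body, the insect counterpart of liver and adipose tissue, and by blood cells, and many are switched on by infection. Peptidoglycan recognition proteins sense bacterial cell walls. In Drosophila, the Toll and Imd pathways carry the signal to transcription factors of the NF-kappaB family that turn the peptide genes on, and Cactus holds the factors of the Toll pathway in the cytoplasm until the receptor is engaged. Toll receptors and their ligands also act in development.

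At this depth, abaecin RNA was detected in worker heads alone. Hymenoptaecin RNA was most abundant in 3 of the 4 worker heads, and so was RNA of the recognition gene PGRP-S3. For each of the 7 genes other than abaecin, hymenoptaecin and apidaecin included, the values of the castes overlapped. No read of LOC406144 was counted in any queen head, against 390 counts over the 4 worker heads, and LOC406142 averaged 25.4-fold more in 96hW than in 96hQ. In bulk heads, fewer cells of a tissue and less RNA per cell cannot be told apart. Genes were compared with edgeR's quasi-likelihood test at a Benjamini-Hochberg adjusted p of 0.01, and 0 of the 7 genes passed. Over all 8151 genes tested, 8.61% passed it, 5.21% higher in 96hQ and 3.4% higher in 96hW. At an adjusted p of 0.05 from edgeR the count was 2 of 7, both higher in 96hW, beside a background of 12.2% in that direction and 26.9% in either. At an unadjusted p of 0.05 it was also 2 of 7, beside 41%. DESeq2, which gave no adjusted p for Apid1, called 2 of the other 6 genes at 0.01, both higher in 96hW, beside 10.8% in that direction and 23.9% in either. The log2 fold change of 96hQ over 96hW was negative for 6 of the 7 genes and positive for 1, with a median of -0.72, beside a median of 0.0046 over all genes. These counts include LOC406144, which had enough counts to be tested only through its worker heads. They are a description and give no support to a caste difference of the group.

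LOC406144 encodes abaecin, a proline-rich antibacterial peptide of bees. It had 0 normalized counts in all 4 queen heads, where normalized counts are counts scaled to the mean library size after TMM normalization, and where 3 counts in a library would be worth between 2.58 and 3.35. In worker heads it had 5.37, 84.3, 261 and 48.1 normalized counts in replicates 1 to 4. Every worker head was above every queen head, as held for 14.7% of all genes tested. For a gene at 0 in all 4 queen heads, the filter of 5 counts in 4 libraries required this separation. That share is therefore no fair comparison for LOC406144. The worker heads themselves lay far apart. Replicate 3 was highest and replicate 1 was 24.4-fold below the mean of the other worker heads. Set against a floor of 3 counts over the 4 queen heads together, the pooled counts of LOC406144 were at least 142.9-fold lower in 96hQ than in 96hW. This bound covers counting error only and not the spread among worker heads. Without 96hW replicate 3 the bound was 64.1-fold. The adjusted p of edgeR was 0.0298, and it lay between 0.0181 and 0.0683 when any 1 head was left out. It was above 0.05 without 96hQ replicate 4, 96hW replicate 2 or 96hW replicate 4. The gene passed the filter on low counts through its worker heads alone, so it could be tested only because its level differed between heads. Fits that left out a head kept the filter set over all heads. With any worker head left out, LOC406144 would have failed a filter of 5 counts in 4 libraries. Its p-values are therefore a description.

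LOC406142 encodes hymenoptaecin, a glycine-rich antibacterial peptide. Its normalized counts were 108, 6.89, 13.4 and 14.8 in the 4 queen heads, against 73.0, 974, 1855 and 722 in the 4 worker heads. The castes overlapped through 1 head of each: 96hQ replicate 1 stood above 96hW replicate 1, while the other 3 worker heads were all above every queen head. Replicate 1 was 9.19-fold above the mean of the other heads in 96hQ, and replicate 1 was 16.2-fold below the mean of the other heads in 96hW. The gene averaged 35.7 ± 48.1 in 96hQ and 906 ± 738 in 96hW (SD, n = 4 each). The log2 fold change was -4.66 with a standard error of 1.13 and an adjusted p of 0.0202 from edgeR, and DESeq2 gave an adjusted p of 0.000212. With 1 head left out at a time, the adjusted p of edgeR lay between 0.0110 and 0.0574. It was above 0.05 without 96hQ replicate 4 or 96hW replicate 3. The log2 fold change was -6.28 without 96hQ replicate 1 and -4.04 without 96hW replicate 3.

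Abaecin and hymenoptaecin took the same order across worker heads, with replicate 3 highest, then replicates 2, 4 and 1. The count of LOC406142 was 13.6, 11.6, 7.12 and 15.0 times that of LOC406144 in worker replicates 1 to 4. The ratio moved less than either gene did, since LOC406142 varied 25.4-fold and LOC406144 48.5-fold among these heads. In replicate 1, the lowest worker head for both genes, the ratio rested on only 5 counts of LOC406144. In 96hQ replicate 1, which had 114 counts of LOC406142, LOC406144 was still at 0 counts.

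Apid1 encodes apidaecin, another proline-rich peptide, which acts on Gram-negative bacteria. It had 9.44, 0, 0 and 6.49 normalized counts in queen heads, against 139.6, 6.49, 8.98 and 3.14 in worker heads. The difference in mean, 3.98 ± 4.75 in 96hQ and 39.6 ± 66.8 in 96hW (SD, n = 4 each), rested on 96hW replicate 1, which was 22.5-fold above the mean of the other worker heads. The remaining worker heads overlapped with the queen heads. The log2 fold change was -3.25 (SE 1.47, adjusted p = 0.134, edgeR), and it was -0.61 without 96hW replicate 1, with an adjusted p of 0.713 from edgeR. The head with the most apidaecin RNA was thus the worker head with the least abaecin and hymenoptaecin RNA. Apidaecins come from a family of near-identical genes, and the reference table lists other apidaecin names under Apid1. The estimated counts of its transcript were whole numbers (within 0.001) in only 2 of the 8 libraries, so reads had been shared with other transcripts and its level is uncertain. Those of LOC406142 and LOC406144 were whole in all 8.

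**Figure D1:**
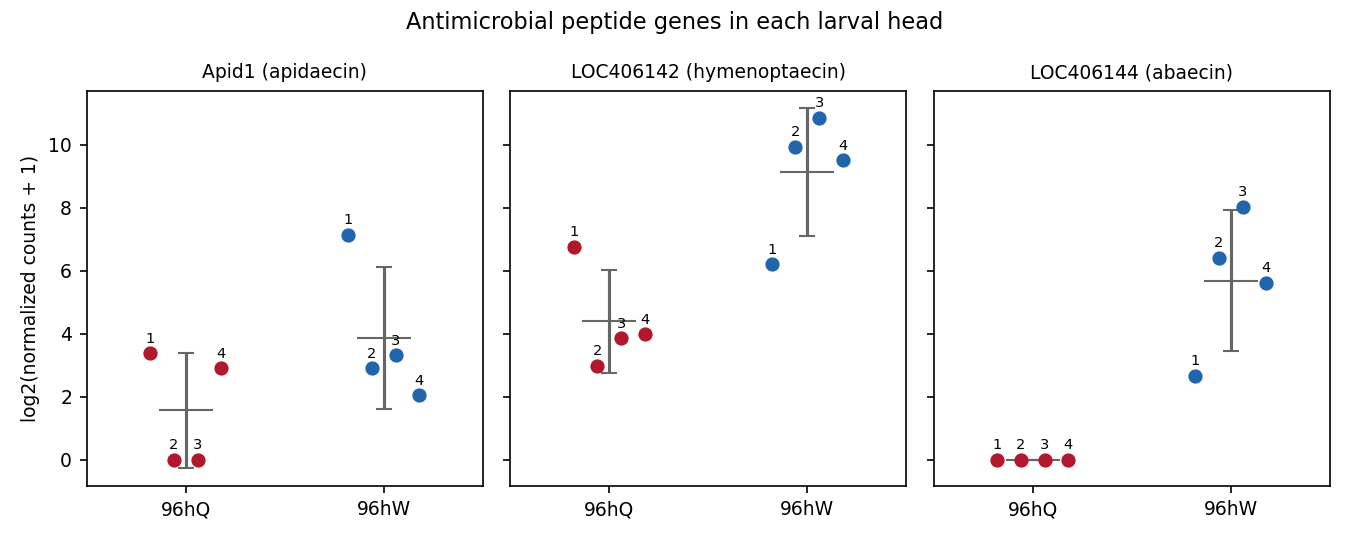
Levels of the 3 antimicrobial peptide genes in each larval head, as log2(normalized counts + 1), for 96hQ and 96hW. Points are heads with their replicate number, and bars give the mean and SD of the 4 heads on this scale. LOC406144 is at 0 in every queen head, LOC406142 overlaps only through replicate 1 of each caste, and Apid1 is high in 96hW replicate 1 alone.

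The peptidoglycan recognition protein genes were measured in every head. Both encode short proteins of a family whose members bind bacterial cell-wall fragments. Pgrp-s2 had 129, 125, 98.3 and 102 normalized counts in queen heads, against 105, 119, 98.8 and 97.2 in worker heads. The heads of both castes lay in 1 narrow range. Means were 114 ± 15.7 in 96hQ and 105 ± 9.86 in 96hW (SD, n = 4 each), and the log2 fold change came to 0.11 (SE 0.15, adjusted p = 0.590, edgeR). Its direction was not fixed, since limma on log2(TPM + 1) gave -0.05. TPM, the share of a transcript in its library corrected for length, was computed by kallisto, and on that scale the median of all genes lay at -0.14.

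PGRP-S3 varied far more. It had 235, 481, 198 and 340.4 normalized counts in queen heads, against 180.4, 627, 684 and 571 in worker heads. Worker replicates 2, 3 and 4 were above every queen head, and worker replicate 1 was below every queen head, 3.48-fold under the mean of the other worker heads. The gene averaged 313 ± 127 in 96hQ and 515 ± 228 in 96hW (SD, n = 4 each). The log2 fold change was -0.72 (SE 0.43, adjusted p = 0.245, edgeR). Leaving out 96hW replicate 1 gave -0.998 with an adjusted p of 0.0509 from edgeR. Its worker heads took the order of LOC406142 and LOC406144, replicates 3, 2, 4 and 1 from high to low, which 5.75% of all genes tested had.

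The gene cact1 encodes a Cactus homologue, the inhibitor of the Toll pathway. In 96hQ it had 862, 389, 605 and 342 normalized counts, against 374, 721, 1028 and 742 in 96hW. Heads of the castes were interleaved, with queen replicate 1 high and worker replicate 1 low. The means were 549 ± 238 in 96hQ and 716 ± 268 in 96hW (SD, n = 4 each), and the log2 fold change was -0.38 (SE 0.37, adjusted p = 0.467, edgeR). Worker replicate 1 was thus the lowest worker head for 4 of the 7 genes, namely LOC406142, LOC406144, PGRP-S3 and cact1, beside 33.6% of all genes tested.

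The receptor gene 18-w is named for 18-wheeler, a Drosophila Toll-family receptor that acts in development. It had 815, 868, 1251 and 894 normalized counts in queen heads, against 1105, 911, 944 and 1038 in worker heads. Worker heads lay inside the range of the queen heads, of which replicate 3 was highest. Means were 957 ± 199 in 96hQ and 999.7 ± 88.5 in 96hW (SD, n = 4 each), and the log2 fold change came to -0.06 (SE 0.14, adjusted p = 0.763, edgeR). Without 96hQ replicate 1 it was 0.0066.

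**Figure D2:**
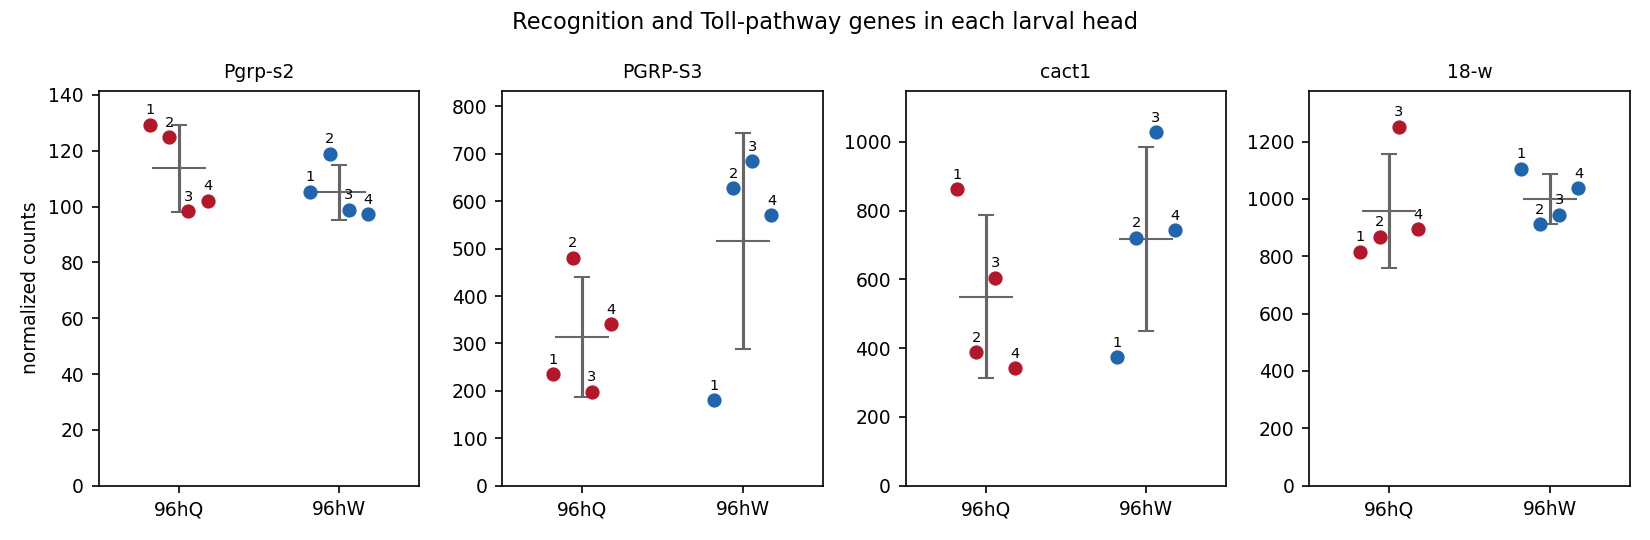
Normalized counts of the recognition protein genes Pgrp-s2 and PGRP-S3 and of cact1 and 18-w in each larval head, for 96hQ and 96hW on axes that start at 0. Points are heads with their replicate number, and bars give the mean and SD of 4 heads. The castes overlap in all 4 panels, and 96hW replicate 1 is the lowest worker head for PGRP-S3 and cact1.

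Of the 10 transcripts paired with the 7 genes, 5 belonged to cact1 and Pgrp-s2 and the other genes had 1 each. None of the 10 passed an adjusted p of 0.01 in the edgeR test of transcripts, in which 1.22% of 20768 passed. At an unadjusted p of 0.05 from edgeR there were 2, the transcripts of LOC406142 and LOC406144, beside 23.5%. DESeq2 called the same 2 transcripts at an adjusted p of 0.01, beside 11.3%. That of LOC406144 had enough counts to be tested only through its worker heads, so these counts are a description. For cact1, the transcript NM_001163712 held 62.3%, 62.4%, 63.3% and 65.6% of the estimated counts in queen heads, against 67.8%, 68.2%, 69.3% and 69.8% in worker heads. All worker heads lay above all queen heads. Among 3400 tested genes with several transcripts, 8.32% had no overlap between castes in the share of their most abundant transcript. The share of XM_006567107 overlapped, with 22.3% to 35.8% in 96hQ and 27.8% to 32.2% in 96hW. XM_006567108 held 1.92% to 15.3% in 96hQ and 0% to 2.59% in 96hW. That transcript had 17.5, 69.0, 52.3 and 17.2 estimated counts in queen heads, against 0, 17.3, 17.2 and 17.2 in worker heads. Its log2 fold change was 1.53 (SE 1.02, adjusted p = 0.430, edgeR). No count of the cact1 transcripts NM_001163712 and XM_006567107 was whole in any library, since they share reads, and the error of that sharing was not measured. For Pgrp-s2, NM_001163716 held 77.8% to 94.8% in 96hQ and 75.0% to 88.5% in 96hW.

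**Figure D3:**
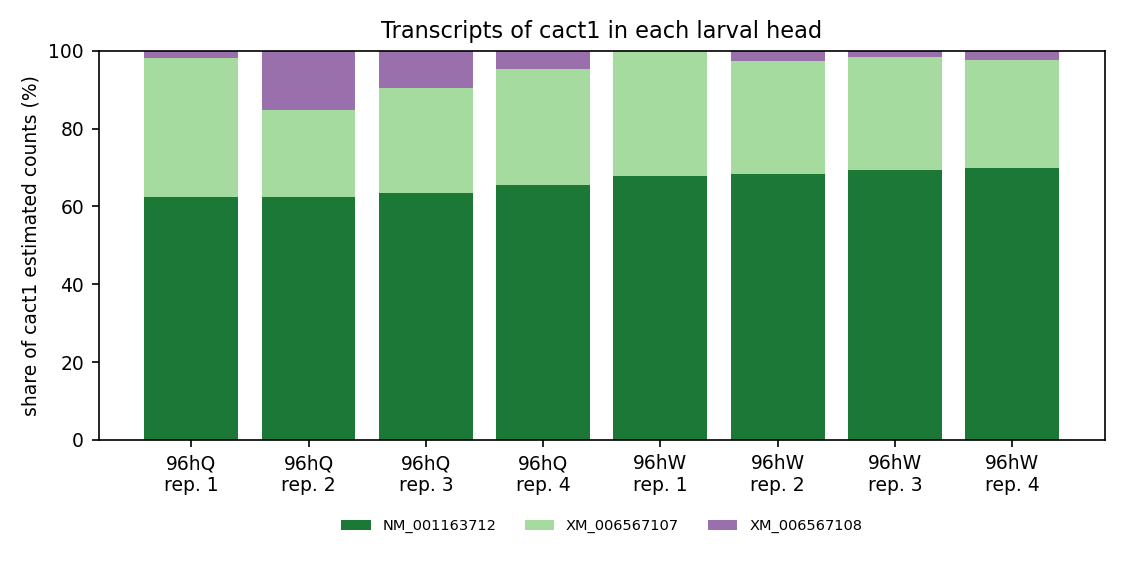
Share of the estimated counts of cact1 (percent) held by each of its 3 transcripts, with 1 bar per larval head, 96hQ on the left and 96hW on the right. NM_001163712 holds 62.3% to 65.6% in queen heads and 67.8% to 69.8% in worker heads, and XM_006567108 is at 0% in 96hW replicate 1.

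Per transcript length, the order of the 7 genes differed between castes. In queen heads cact1 (35.5 ± 14.4 TPM) and PGRP-S3 (31.5 ± 15.8 TPM) led and were within their spread of each other. PGRP-S3 was also within its spread of 18-w, and the heads of these genes overlapped. Lower means were those of 18-w (15.8 ± 1.80 TPM), Pgrp-s2 (10.4 ± 2.19 TPM), LOC406142 (4.74 ± 6.36 TPM), Apid1 (0.507 ± 0.599 TPM) and LOC406144, which was listed at 0 in every queen head. There 18-w and Pgrp-s2 lay further apart than their SDs, whereas Pgrp-s2 and LOC406142 did not. In worker heads LOC406142 had the highest mean (136.5 ± 113.6 TPM), above 90.8% of the 9161 genes, against 27.9% for its mean in queen heads. PGRP-S3 (55.4 ± 23.8 TPM), cact1 (52.3 ± 18.9 TPM) and LOC406144 (37.5 ± 43.1 TPM) came next in worker heads, within their spread of each other and of LOC406142. In the same heads 18-w had 18.5 ± 2.42 TPM, Pgrp-s2 10.7 ± 1.32 TPM and Apid1 5.90 ± 10.1 TPM (SD, n = 4 heads throughout).

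Among heads of 1 caste, the peptide genes were among the most variable genes measured. The SD of log2 CPM within castes, where CPM is the count scaled to library size with a prior count of 2, was 1.81 for LOC406142, 1.78 for Apid1 and 1.52 for LOC406144. These values were above those of 99.2%, 99.1% and 98.7% of the 8151 genes tested, whose median was 0.17. The spread of LOC406144 came from worker heads alone. PGRP-S3 (0.75) and cact1 (0.61) were above 92.0% and 88.2% of genes, whereas Pgrp-s2 (0.17) and 18-w (0.22) were near the median, above 48.9% and 57.6%. High spread was not limited to peptide genes nor shared by all of them. Outside the group, the melanization gene PPO had 1.18, above 97.3%, and the defensin-1 gene Def1 had 0.61, above 88.2%. The immune genes B-gluc1 (0.31) and Imd (0.22) were above 69.4% and 58.9%. Apid1 and LOC406144 also rested on few counts, with at most 10.2 in 7 of the 8 heads and at most 5 in 5 of the 8 heads.

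Other immune genes were sought by symbol, for peptides, recognition proteins, the Toll, Imd and JAK/STAT pathways, melanization and lysozymes. In addition to the 7 genes, 5 were matched and 4 had enough counts to be tested. None of the 4 passed an adjusted p of 0.01 with edgeR or DESeq2, or an unadjusted p of 0.05 with edgeR, beside 8.61%, 23.9% and 41% of all genes, so that a count of 0 among 4 says little. Their median log2 fold change was 0.01. No further gene of Toll signalling was matched by symbol, so the rest of that pathway was not analysed here.

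Def1, which encodes the peptide defensin-1, had 139, 166, 201 and 259.7 normalized counts in queen heads, against 125, 197, 422 and 151 in worker heads. Heads of both castes were interleaved, and the order of worker heads was again replicates 3, 2, 4 and 1. Its log2 fold change was -0.22 (SE 0.39, adjusted p = 0.702, edgeR), and without 96hW replicate 3 it was 0.28. Def2, the gene of defensin-2, had at most 3 counts in a queen head and at most 5 in a worker head and was not tested. Thus the fold between castes in the means was large for abaecin and hymenoptaecin RNA and was 1.17 for Def1, as 96hW over 96hQ.

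B-gluc1 encodes a protein of the beta-glucan recognition family, which binds fungal cell walls. Its mean was 177 ± 34.4 in the queen heads and 164 ± 38.7 in the worker heads, in normalized counts (SD, n = 4 each), with an adjusted p of 0.728 from edgeR. Imd, the adaptor of the Imd pathway, had 438 ± 85.0 in 96hQ and 463 ± 37.3 in 96hW (SD, n = 4 each), with an adjusted p of 0.707 from edgeR. PPO encodes prophenoloxidase, the proenzyme of melanization that insect blood cells make. It had 748, 3056, 1119.6 and 1598 normalized counts in queen heads, against 2788, 1169.5, 255 and 942 in worker heads. The castes overlapped widely, and among worker heads replicate 1 was highest and replicate 3 lowest, the reverse ends of those of LOC406142 and LOC406144. The log2 fold change of PPO was 0.34 (SE 0.68, adjusted p = 0.738, edgeR).

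**Figure D4:**
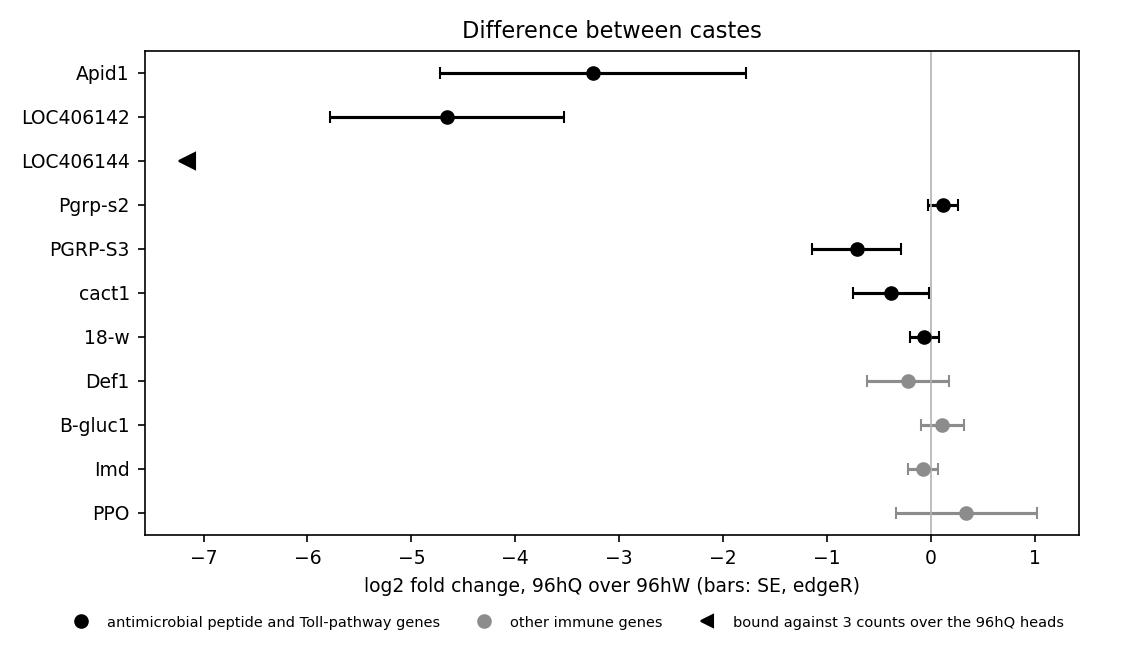
Log2 fold change of 96hQ over 96hW for the 7 antimicrobial peptide and Toll-pathway genes (black) and the 4 other immune genes tested (grey), with bars of 1 standard error from edgeR. The triangle for LOC406144 marks its bound of -7.16, computed against 3 counts over the queen heads, and the other genes run from -4.66 for LOC406142 to 0.34 for PPO.

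Genes of fat body proteins also differed between heads, and not all in the same way. The 6 genes of storage and transport proteins matched (the hexamerins Hex70a, HEX70b, Hex70c and Hex110, the yolk precursor Vg and the iron carrier Tsf1) were above 0 in every head. Together they had between 251979 and 517342 normalized counts in queen heads, against 218451, 1650048, 1901799 and 2063745 in worker replicates 1 to 4. Worker replicate 1, the worker head with the least LOC406142, LOC406144 and PGRP-S3, had the lowest sum of all 8 heads, and worker replicates 2, 3 and 4 had the highest. HEX70b and Hex110 made up most of that sum. Tsf1 did not follow it, with 20697 normalized counts in worker replicate 1, the second highest of the worker heads. Hex70a, Vg and Tsf1 did not overlap between castes, and all were higher in 96hW, beside 14.7% of all genes tested. Hex70a and Vg passed an adjusted p of 0.01 (0.00889 and 0.00977, edgeR), beside 3.4% of all genes in that direction. The order of worker heads was not shared in full, since the fat body sum was highest in replicate 4 and LOC406142 in replicate 3. In 96hQ replicate 1, the queen head with the most LOC406142, the sum was the lowest of the queen heads. The part of fat body RNA in the caste difference of the peptides was not tested.

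**Figure D5:**
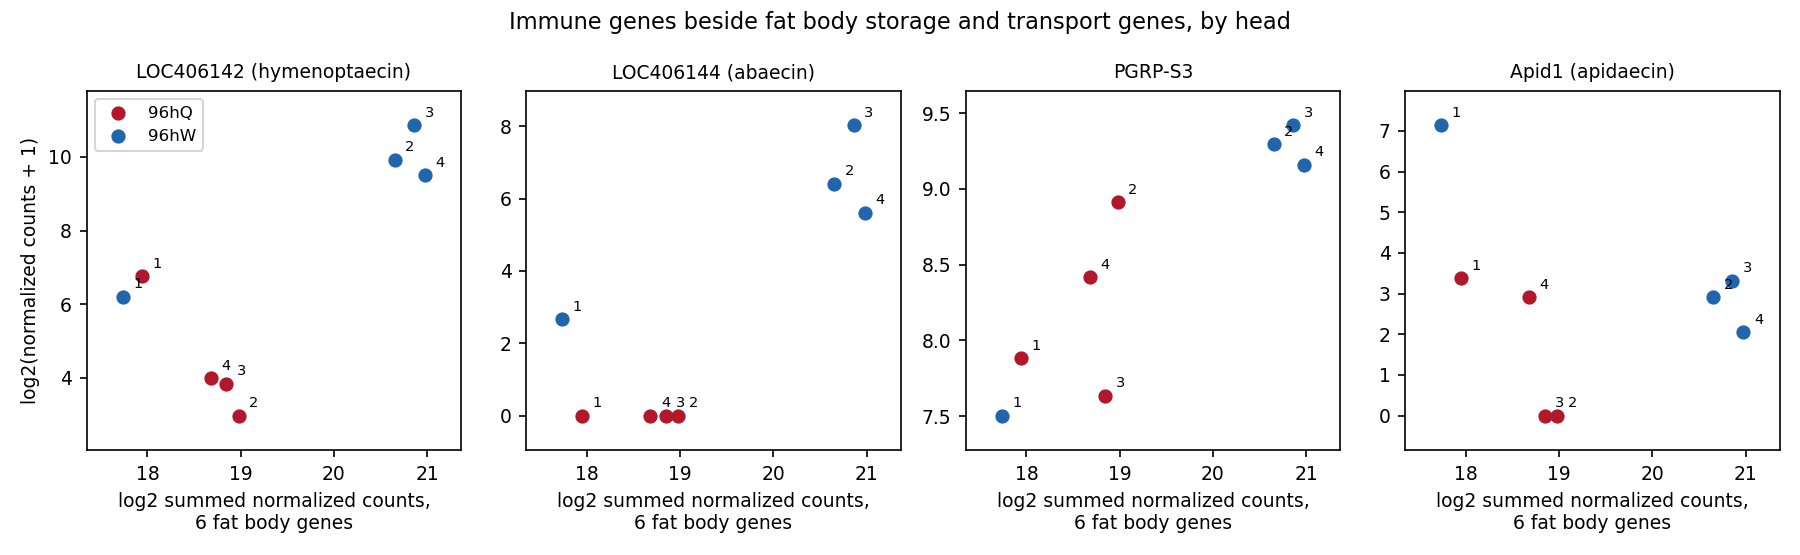
Levels of LOC406142, LOC406144, PGRP-S3 and Apid1, as log2(normalized counts + 1), plotted against the log2 of the summed normalized counts of 6 fat body genes, with 1 point per head (96hQ red, 96hW blue, labelled by replicate). Worker replicates 2, 3 and 4 lie at the high end of the fat body axis, and 96hW replicate 1 lies at its low end beside 96hQ replicate 1. Among worker heads, 96hW replicate 1 has the least LOC406142, LOC406144 and PGRP-S3 and the most Apid1. Its LOC406142 is above that of 96hQ replicates 2, 3 and 4, and its LOC406144 is above that of every queen head.

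The summed neuron markers did not overlap between castes and were also higher in 96hW, whereas those of the silk gland overlapped. The 11 neuron genes matched, none at 0 in any head, summed to between 3774 and 5959 normalized counts in queen heads, against 7255 to 8324 in worker heads. Worker replicate 1, at 7567, lay among the other worker heads on this measure. All 11 neuron genes had a negative log2 fold change of 96hQ over 96hW. Of these, 6 did not overlap between castes, beside 14.7% of all genes tested. At an adjusted p of 0.01 from edgeR 1 passed, beside 3.4% of all genes in that direction. The 4 silk gland genes, also above 0 in every head, summed to 62.3 to 99.2 in 96hQ and 66.9 to 98.8 in 96hW. Of the blood cell markers PPO alone was matched, so blood cells were not otherwise assessed. Without 96hQ replicate 3 and 96hW replicate 1, a choice made after seeing the data, the log2 fold change was -4.80 for LOC406142 (adjusted p = 0.0139, edgeR), -0.83 for PGRP-S3 (adjusted p = 0.0530, edgeR) and -0.24 for Apid1 (adjusted p = 0.871, edgeR). LOC406144 had an adjusted p of 0.0176 from edgeR in that fit. It had passed the filter on low counts through its worker heads alone, and 1 of them was left out here. That value is therefore a description and gives no support to a caste difference.

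For each of the 7 genes, the 3 genes with the most similar pattern were found by Pearson r of log2 CPM over the 8 heads. The heads are the same libraries for both genes of a pair and include both castes, so a difference between castes enters r. The gene most like LOC406142 was LOC413908 (r = 0.98), with 2.78 to 33.0 normalized counts in 96hQ and 46.2 to 310.5 in 96hW. LOC100576760 (r = 0.98) and LOC102654161 (r = 0.97) followed. Those most like LOC406144 were LOC408539 (r = 0.99), LOC100578066 (r = 0.99) and LOC724187 (r = 0.98). As LOC406144 separates the castes, genes chosen for likeness to it had to differ between them, and no test is given for these 3. LOC724187 had 84.9 to 142 normalized counts in queen heads, against 461 to 3589 in worker heads. All 6 of these genes are named in the files by identifier alone, and no role is given to them here.

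Between the peptides themselves, LOC406142 and LOC406144 had an r of 0.93, and Apid1 had an r of 0.27 with LOC406142 and 0.18 with LOC406144 (8 heads). Among the 6 fat body genes, the r of LOC406144 ran from 0.66 with HEX70b (rank 1382 of 8150 genes) to 0.96 with Hex70a (rank 18). That of LOC406142 ran from 0.52 with HEX70b (rank 1917) to 0.90 with Hex110 (rank 81). LOC406144 was at 0 counts in every queen head, so the difference between castes enters each r and rank given for it. Hex70a also did not overlap between castes. With the same 6 genes, r ran from 0.51 to 0.57 for cact1, from -0.60 to 0.60 for Apid1 and from -0.19 to 0.34 for 18-w. For Pgrp-s2 it was negative throughout, from -0.41 to -0.22. PGRP-S3 was closest to LOC411147 (r = 0.99), LOC724175 (r = 0.97) and LOC102654952 (r = 0.96). Its r with the fat body genes ran from 0.04 with Tsf1 (rank 3826) to 0.95 with Hex70c (rank 5). A like pattern was not a like size, since LOC411147 ran only between 2698 and 3095 normalized counts in 96hQ and between 2684 and 3344 in 96hW. The same held for Apid1, whose closest genes LOC724205 (r = 0.96), LOC411629 (r = 0.95) and LOC107966113 (r = 0.95) all varied less than 1.5-fold among heads. For cact1 the closest genes were LOC726803 (r = 0.97), LOC724756 (r = 0.97) and LOC726289 (r = 0.96). For 18-w they were LOC102656661 (r = 0.97), LOC551928 (r = 0.97) and LOC413052 (r = 0.96), and for Pgrp-s2 LOC413495 (r = 0.95), LOC552015 (r = 0.92) and LOC411969 (r = 0.89).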

How the data were processed

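RNA from 8 individual larval heads was sequenced by the authors as 100 bp paired-end reads and quantified with kallisto in its strand-specific mode. The deposited expected counts, the estimated counts of kallisto, cover 28739 transcripts per library and were not normalized between libraries. TPM, also deposited, had been corrected by kallisto for effective transcript length and brought to a common sum. The deposited transcript lengths were not used in any test. The paper names an Ensembl Metazoa set, whereas the files carry RefSeq accessions, and the version of kallisto is not given in the sources used here.

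Transcripts were paired by accession with the genes of a RefSeq table (Amel_HAv3.1, an assembly newer than that of the files). It served for names alone, so no coordinates or sequences are given. It paired 17723 transcripts with 9161 genes, which held 78.1% to 81.0% of the counts of a library. Of the 10 transcripts of the 7 genes, 8 had the same version in the table. Estimated counts were summed per gene, rounded and compared by edgeR 4.0.16 (R 4.3.3) over all 8151 genes or 20768 transcripts that reached 5 counts in 4 libraries or more. TMM normalization and the quasi-likelihood F test were used, with caste as the only term, Benjamini-Hochberg adjustment and a threshold of 0.01, which the study applied to another test. Standard errors were obtained from the log2 fold change and the square root of F. The study used sleuth, which was not run here. The fits were tested on simulated data with known changes. Bounds against 0 use a floor of 3 counts and cover counting error only.

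The members and lists were chosen with earlier results of these data known. The genes named are the 7 members and their transcripts, the 3 genes most similar to each by Pearson r, and the other immune genes matched by symbol or synonym, up to 4 per list by p with all Toll signalling genes. Alternatives were other size factors and filters, DESeq2 1.42.0, limma 3.58.1 on log2 TPM with a pseudocount of 1 or 0.1, a threshold of 0.05, a block on the replicate number, and leaving out each head. A robust prior and a fit without both 96hQ replicate 3 and 96hW replicate 1 were added after seeing the data. Fits that left out heads kept the genes and transcripts that passed the filter over all heads. Figures were drawn with matplotlib 3.10.9.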

Additional observations from a re-analysis of the deposited data

Results flagged for a closer look

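In 2 of the 23 groups of 4 heads, 1 head stood further from the others than Dixon's 95% critical value allows for 4 samples. About 1 group in 20 passes that value where levels are normally distributed. The distances were taken on normalized counts without a log transform, and whether these are normally distributed was not tested. The same heads were not tested on a log2 scale, so the flags hold for this scale only. Apid1 had 140 normalized counts in 96hW replicate 1, while the other worker heads had 3.14 to 8.98. LOC406142 had 108 normalized counts in 96hQ replicate 1, while the other queen heads had 6.89 to 14.8.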

How the results depend on the processing

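The count of 702 genes that differed at an adjusted p of 0.01 with edgeR was 1900 with DESeq2, 234 with limma on log2(TPM + 1), 227 on log2(TPM + 0.1), and 145 to 780 with 1 head left out. That of 254 transcripts was 159 without a filter, 2286 with DESeq2 and 2 to 153 with 1 head left out. None of the 7 genes was called in any fit that left out a head, whereas 2 were called by DESeq2 (LOC406142 and LOC406144), 1 by limma on log2(TPM + 0.1) (LOC406144, adjusted p = 0.00240) and 2 at an adjusted p of 0.05 with edgeR. The cause of these shifts was not tested. In log2 TPM, all genes had a median of -0.14 (pseudocount 1) or -0.16 (0.1), and 38.0% or 41.0% of calls were higher in 96hQ, against 60.5% with edgeR on counts.

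Directions turned for Pgrp-s2 on log2 TPM (-0.051 and -0.057), B-gluc1 on log2 TPM (-0.20 and -0.22), 18-w without 96hQ replicate 1 (0.0066), Def1 without 96hW replicate 3 (0.28), Imd without 96hQ replicate 3 (0.036) or also without 96hW replicate 1 (0.066) and PPO without 96hQ replicate 2 (-0.16). They also turned for XM_006564043 of Pgrp-s2 (0.11 and 0.28 without 96hQ replicate 4 or 96hW replicate 2) and for the 18-w transcript NM_001013361 (0.046, 0.0087, 0.0046 and 0.012 without 96hQ replicate 1, 2 or 4 or 96hW replicate 1). With 1 head left out, the range was -0.42 to 0.28 for Def1, -0.17 to 0.036 for Imd, -0.16 to 1.05 for PPO, -0.22 to 0.0066 for 18-w, -0.68 to 0.28 for XM_006564043 and -0.17 to 0.046 for NM_001013361. LOC406142, LOC406144, Apid1, PGRP-S3 and cact1 kept their sign in each fit that gave them a value. The filter of 20 counts removed Apid1 and LOC406144.

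Equal replicate numbers did not pair the heads: the deviations of equally numbered heads correlated at 0.098, 0.015, -0.037 and -0.052, and 1 of the 4 numbers matched best with itself. With the replicate number as a block, 10 genes, 1 transcript and 0 of the 7 genes were called. Few counts limit Apid1 and LOC406144. A planned search for NF-kappaB motifs in promoters was not run, since no promoter sequence was used here.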
